A study of Mus musculus with 9 samples.

Results

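The genes described here are 10 cytokine genes of activated lymphocytes: Ifng, Tnf, Il2, Il21, Il10, Csf1, Csf2, Lta, Ltb and Fasl. They were chosen by name, with earlier results of these data known, as 10 of the 22136 genes in the tables. They were compared between 3 groups of tumour leukocyte libraries. The libraries came from CD45+ cells, that is, all leukocytes, sorted from tumours of the mouse melanoma line YUMM 2.1. The title of the series places the line among beta-catenin driven melanomas. The tumours were grown under the skin of immunocompetent C57BL/6J mice, and all 9 libraries share this line, strain and sort. Treatment was started at tumour volumes of 20 to 50 mm3. The control group received an isotype control IgG. The anti-B7-H3 group received an antibody to B7-H3, a checkpoint protein of tumour and myeloid cells, and the anti-PD1 group an antibody to PD1, an inhibitory receptor of activated T cells. Each group held 3 libraries. The labels give no dose, antibody clone, day of harvest or age of the mice, and nothing states that the replicates came from separate mice. P-values therefore measure the spread between these libraries, which may be technical in part.

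T cells and NK cells that meet their antigen or an activating ligand transcribe cytokine genes within hours. The genes are switched on by calcium and kinase signals through NFAT, AP-1 and NF-kB, and the short-lived mRNAs are destroyed again through AU-rich elements. Interferon gamma and TNF act on tumour cells and macrophages, interleukin 2 and interleukin 21 act on other lymphocytes, interleukin 10 restrains myeloid cells, and the colony-stimulating factors drive myeloid growth. Membrane lymphotoxin and Fas ligand signal to cells in contact. Several of these genes are not private to lymphocytes: macrophages and other myeloid cells also make Tnf and Il10, and stromal cells also make Csf1.

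In GENCODE M21 on GRCm38, each of the 10 is a protein-coding gene. Ltb, Tnf and Lta are neighbours within 10913 bases of chromosome 17, and Il2 and Il21 lie within 112114 bases of chromosome 3. Exons of Ifng overlap an exon of Gm49751 on the same strand. Exons of Il21 and Csf2 overlap Gm12534 and Gm12223 on the opposite strand. The library kits do not mark strand, so reads of bases shared with such partners cannot be told apart. Overlap was read from whole exons. Whether the shared bases lie in the coding sequence that was quantified was not checked. The 250 bases upstream of the start site were taken from RefSeq (GRCm38.p6), which matched 9 of the 10 genes. Il10 was not among them. RefSeq and GENCODE start sites can differ. The GENCODE gene of Csf2 starts at base 54249667 of chromosome 11, outside its window, so the bases between them were not scanned. The window of Ltb, up to base 35194506 of chromosome 17, runs into the GENCODE gene, which starts at 35194439. The promoters of the 4 genes with the clearest separation between groups are shown, 5′ to 3′. Capitals mark the NFAT core GGAAA on either strand and the 1 match to the NF-kB consensus:
Ifng, chr10:118440796-118441045, plus strand: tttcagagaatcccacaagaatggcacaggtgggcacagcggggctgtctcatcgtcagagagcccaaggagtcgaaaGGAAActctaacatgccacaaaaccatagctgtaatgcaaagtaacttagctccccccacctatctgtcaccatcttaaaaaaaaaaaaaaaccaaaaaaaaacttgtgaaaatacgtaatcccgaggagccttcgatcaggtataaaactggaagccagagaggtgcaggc
Csf2, chr11:54249900-54250149, minus strand: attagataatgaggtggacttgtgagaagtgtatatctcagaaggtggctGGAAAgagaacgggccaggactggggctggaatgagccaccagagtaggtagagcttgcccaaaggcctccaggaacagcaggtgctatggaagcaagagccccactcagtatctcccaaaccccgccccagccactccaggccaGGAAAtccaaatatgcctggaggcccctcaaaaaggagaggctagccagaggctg
Csf1, chr3:107760470-107760719, minus strand: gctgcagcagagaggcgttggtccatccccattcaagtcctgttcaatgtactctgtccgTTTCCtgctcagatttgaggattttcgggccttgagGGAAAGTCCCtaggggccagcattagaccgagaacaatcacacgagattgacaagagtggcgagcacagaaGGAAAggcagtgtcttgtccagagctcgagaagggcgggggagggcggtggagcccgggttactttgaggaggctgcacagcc
Tnf, chr17:35202008-35202257, minus strand: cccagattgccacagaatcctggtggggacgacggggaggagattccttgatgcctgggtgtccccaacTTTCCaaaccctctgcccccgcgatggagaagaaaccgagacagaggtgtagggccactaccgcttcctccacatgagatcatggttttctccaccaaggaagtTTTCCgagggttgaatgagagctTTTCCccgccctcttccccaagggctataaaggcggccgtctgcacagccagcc

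The NFAT core GGAAA, searched on both strands, was present in the upstream window of 9 of 9 genes, and in 55.6% of 32851 mouse windows of the same length. A match to the NF-kB consensus, searched on both strands, was present in 2 of 9, Csf1 and Ltb, and in 7.25% of all windows. Both held the same 10-letter core GGAAAGTCCC, which contains an NFAT core. These 28-base windows are shown because the 2 genes lay on opposite sides of IgG with anti-PD1, and capitals mark the match:
Csf1, chr3:107760605-107760632, minus strand: ggccttgagGGAAAGTCCCtaggggcca
Ltb, chr17:35194411-35194438, plus strand: agggtgttcGGAAAGTCCCcgggcaggg

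A gamma-activated site TTCNNNGAA was found in 3 of 9 (7.02% of all windows) and the T-box core GGTGTG in 3 of 9 (16.3%). The letters TATAAA were found in 4 of 9 (12.4%). Neither the AP-1 letters TGANTCA (6.75% of all windows) nor the cAMP response element TGACGTCA (1.55%) were in any of the 9 windows. A match is a description of letters and not a measured binding site.

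Levels of different genes can be set side by side only per length, for which the deposited TPM was used, summed over the transcripts of a gene. Ltb, a subunit of membrane lymphotoxin, was the most abundant of the 10, with a mean of 927 TPM over the 9 libraries (764 to 1281). Ifng followed with 107 TPM, Fasl with 94.6, Lta with 39.6, Csf2 with 32.0 and Tnf with 29.0. Il10 reached 22.1 TPM, Csf1 10.4, Il2 6.13 and Il21 2.45. The ranges of neighbours in this order overlapped for every pair except Ltb and Ifng. Ifng exceeded Fasl in 4 of 9 libraries, so their order is not resolved, whereas summed Fasl exceeded Lta in 9 of 9. The place of Fasl depends on Fasl-202, with a coding length of 210 bases. It held 56.2% to 58.2% of Fasl TPM in the group means. Fasl-201 alone was below Lta in some libraries (43.2 against 46.1 TPM in IgG replicate 2). In others it was above (47.9 against 39.2 TPM in IgG replicate 1).

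Library totals ran from 14487012 to 31533106 estimated counts. A floor of 3 counts therefore lies between 0.0925 and 0.223 CPM, that is, counts scaled to a common library size with TMM factors, the unit of all further levels of single genes. Floors and counting intervals cover counting error only. Ptprc, which encodes CD45, was at 1718 to 2913 CPM in the 9 libraries. Replicate 2 of IgG stood apart on the first principal component and had 1896 of the 13178 tested genes at 0. Replicate 3 of anti-PD1 had 1248 at 0, and the other 7 had 224 to 822. The summed level of 15 T cell markers was 8447 to 11618 CPM in IgG, 6921 to 9841 under anti-B7-H3 and 7173 to 8812 for anti-PD1.

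All 10 cytokine genes passed the filter on low counts. Because the list was chosen with earlier results known, the shares over all tested genes beside it are a description and not a test. By edgeR's quasi-likelihood test, with p-values adjusted over the 13178 tested genes, 0 of the 10 passed the threshold of 0.05 in any of the 3 comparisons. With anti-B7-H3 against IgG, 0.85% of all tested genes passed. The groups did not overlap for 2 of the 10, Ifng and Csf2, both higher, where 9.96% of all tested genes were higher without overlap and 5.49% lower. The same 2 had unadjusted p-values under 0.05 (8.81% of all tested genes). The median log2 difference of the 10 was 0.21, and that of all tested genes 0.02.

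With anti-PD1 against IgG, 1.74% of all tested genes passed. The groups did not overlap for 7 of the 10: Ifng, Tnf, Il10, Csf1 and Csf2 were higher and Il2 and Ltb lower. Over all tested genes, 9.99% were higher without overlap and 6.52% lower. Unadjusted p-values under 0.05 were found for 6 of the 10 (10.9% of all tested genes). The median log2 difference was 0.84, against -0.04 for all tested genes. With DESeq2 in place of edgeR, Ifng passed in both comparisons (adjusted p = 0.0403 and 0.00914), and Il10 (adjusted p = 0.00373) and Csf1 (adjusted p = 0.0122) passed with anti-PD1. DESeq2 called 3.08% of the genes it adjusted with anti-B7-H3, against 1 of the 10, and 5.26% with anti-PD1, against 3 of the 10. The same 3 IgG libraries serve as the reference of both comparisons.

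Between the antibodies, anti-PD1 against anti-B7-H3, 0 of all 13178 genes passed by edgeR (0%), 425 had an unadjusted p under 0.05 (3.23%), and DESeq2 called 15 (0.115%), of which 0 were among the 10. Csf1 and Tnf were higher with anti-PD1 without overlap, where 6.4% of all tested genes were higher in this way and 7.13% lower. Csf1 and Il10 had unadjusted p-values under 0.05. The plot of single libraries shows which genes separate and which do not.

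**Figure D1:**
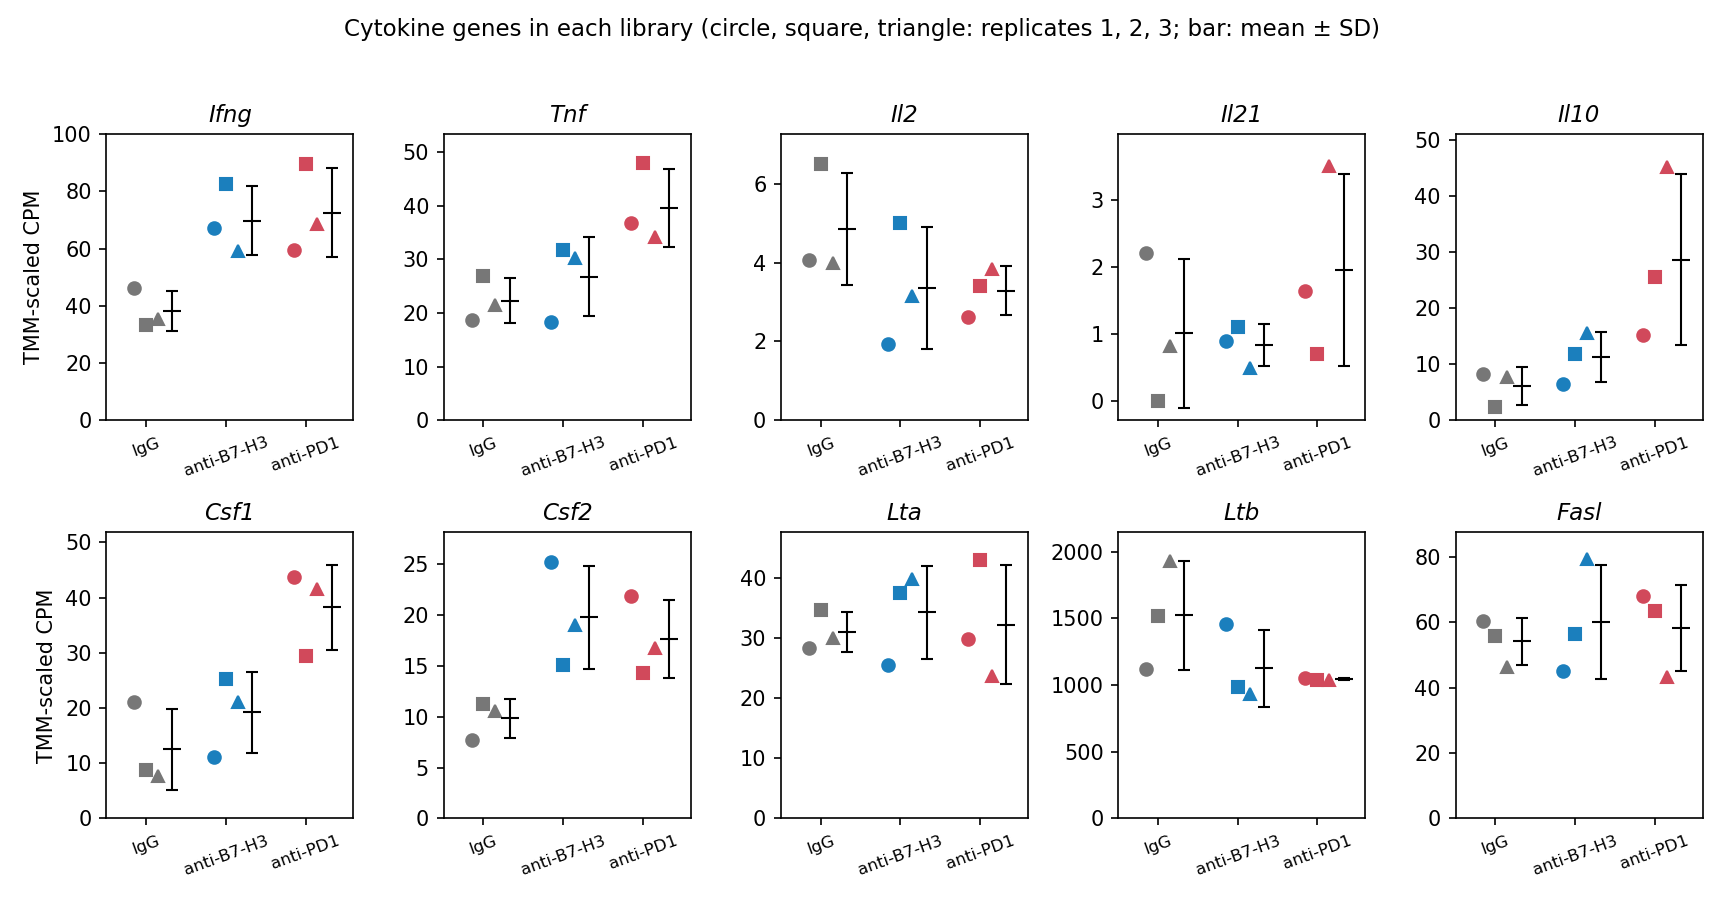
Level of each of the 10 cytokine genes in every library, in TMM-scaled CPM, with a separate linear axis per gene. Points are libraries and bars the mean and SD of 3. Ifng and Csf2 lie higher in all 6 antibody libraries than in the 3 IgG libraries, and Csf1 and Tnf are highest in the 3 anti-PD1 libraries.

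Ifng encodes interferon gamma, the activator of macrophages and of antigen presentation made by T and NK cells. It was at 46.1, 33.2 and 35.2 CPM in IgG replicates 1 to 3, at 67.3, 82.7 and 59.1 in the anti-B7-H3 group, and at 59.5, 89.7 and 68.5 with anti-PD1. The 6 antibody libraries were above the 3 IgG libraries, and the antibody groups overlapped each other. The means were 38.2 ± 6.93, 69.7 ± 12.0 and 72.6 ± 15.5 CPM (SD, n = 3 each). The log2 difference from IgG was 0.87 ± 0.24 (SE) with anti-B7-H3, with an adjusted p of 0.217 by edgeR's quasi-likelihood test. With anti-PD1 it was 0.93 ± 0.24 (edgeR adjusted p = 0.101). The difference between the antibodies was 0.06, with a 95% interval from -0.47 to 0.58. On the linear scale the estimates were 1.83-fold and 1.90-fold of IgG, without passing the adjusted threshold.

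Tnf encodes tumour necrosis factor, an inflammatory cytokine of T cells and macrophages. It was at 18.7, 26.8 and 21.4 CPM in IgG, at 18.3, 31.7 and 30.2 in the anti-B7-H3 group, and at 36.7, 47.9 and 34.1 with anti-PD1. Each anti-PD1 library was above the other 6, and the anti-B7-H3 libraries spanned the IgG range. The log2 difference from IgG was 0.83 ± 0.30 with anti-PD1 (edgeR adjusted p = 0.300) and 0.26 ± 0.29 with anti-B7-H3 (edgeR adjusted p = 0.890). Between the antibodies it was 0.57 ± 0.29, with an unadjusted p of 0.0809 and an edgeR adjusted p of 1.00.

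The interleukins differed from each other in pattern. Il2, the growth factor made chiefly by activated helper T cells, was at 4.06, 6.50 and 3.99 CPM in IgG, at 1.93, 5.02 and 3.14 in the anti-B7-H3 group, and at 2.61, 3.40 and 3.84 with anti-PD1. The anti-PD1 libraries were below the IgG libraries, with 3.84 against 3.99 CPM at the nearest pair, and the anti-B7-H3 libraries overlapped both groups. The log2 difference with anti-PD1 was -0.56 ± 0.71 (edgeR adjusted p = 0.840), smaller than its SE. Il2 rested on 26 to 149 counts a library. Il21, which helper T cells make for B cells and CD8 T cells, was the least abundant, at 0 to 84 counts a library and 0 to 3.51 CPM. It had 0 counts in replicate 2 of IgG, which allows up to 0.186 CPM there. Its 3 groups overlapped, and its 95% interval for anti-PD1 against IgG ran from -2.37 to 4.25 on the log2 scale, so a change of either sign was not detectable at this depth.

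Il10 encodes interleukin 10, an inhibitor of macrophage activation made by regulatory T cells, other T cells and myeloid cells. It was at 8.22, 2.29 and 7.78 CPM in IgG, at 6.53, 11.9 and 15.5 in the anti-B7-H3 group, and at 15.1, 25.6 and 45.1 with anti-PD1. The anti-PD1 libraries were above the IgG libraries and overlapped the anti-B7-H3 range, and they spread more widely than either other group. The log2 difference from IgG was 2.23 ± 0.58 with anti-PD1, the largest of the 10 (edgeR adjusted p = 0.103). It was 0.89 ± 0.56 with anti-B7-H3 (edgeR adjusted p = 0.744). Between the antibodies it was 1.34 ± 0.56 (unadjusted p = 0.0374, edgeR adjusted p = 1.00). Without anti-PD1 replicate 3 the difference from IgG was 1.74 (edgeR adjusted p = 0.326), and without IgG replicate 2 as well it was 1.34 (edgeR adjusted p = 0.343).

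The colony-stimulating factors separated in different ways. Csf2 encodes GM-CSF, the growth factor of granulocytes, macrophages and dendritic cells. It was at 7.67, 11.3 and 10.5 CPM in IgG, at 25.2, 15.1 and 19.0 in the anti-B7-H3 group, and at 21.8, 14.2 and 16.8 with anti-PD1. The 6 antibody libraries were above the 3 IgG libraries and the antibody groups overlapped. The log2 difference was 1.01 ± 0.34 with anti-B7-H3 (edgeR adjusted p = 0.384) and 0.84 ± 0.34 with anti-PD1 (edgeR adjusted p = 0.397). Between the antibodies the 95% interval ran from -0.91 to 0.58.

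Csf1 encodes M-CSF, the growth factor that maintains macrophages. It was at 21.0, 8.85 and 7.68 CPM in IgG, at 11.1, 25.3 and 21.1 in the anti-B7-H3 group, and at 43.8, 29.4 and 41.5 with anti-PD1. Each anti-PD1 library was above the other 6, while IgG and anti-B7-H3 overlapped. The log2 difference from IgG was 1.61 ± 0.45 with anti-PD1 (edgeR adjusted p = 0.132) and 0.62 ± 0.44 with anti-B7-H3 (edgeR adjusted p = 0.786). Between the antibodies it was 0.99 ± 0.44 (unadjusted p = 0.0463, edgeR adjusted p = 1.00). Without IgG replicate 1, the highest of its group, Csf1 passed with anti-PD1, at 2.24 (edgeR adjusted p = 0.0389), and was at 1.24 with anti-B7-H3 (edgeR adjusted p = 0.291).

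Ltb and Lta encode the subunits of lymphotoxin, which signals through the lymphotoxin beta receptor and the TNF receptors, and Fasl encodes Fas ligand, an inducer of apoptosis on killer cells. Ltb was at 1118, 1519 and 1932 CPM in IgG, at 1460, 987 and 934 in the anti-B7-H3 group, and at 1056, 1042 and 1037 with anti-PD1. The anti-PD1 libraries lay within 1037 to 1056 CPM, below the lowest IgG library, and the anti-B7-H3 libraries overlapped both groups. The log2 difference with anti-PD1 was -0.54 ± 0.24 (unadjusted p = 0.0484, edgeR adjusted p = 0.452), and with anti-B7-H3 it was -0.43 ± 0.24 (edgeR adjusted p = 0.694). Lta was at 23.8 to 43.1 CPM and Fasl at 43.2 to 79.3 CPM in the 9 libraries, with overlap between all groups. Against IgG, the log2 differences of Lta were 0.14 ± 0.29 under anti-B7-H3 and 0.05 ± 0.29 with anti-PD1. Those of Fasl were 0.15 ± 0.27 and 0.10 ± 0.27. The 95% intervals of Fasl ran from -0.44 to 0.74 and from -0.48 to 0.69, and both include 0.

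**Figure D2:**
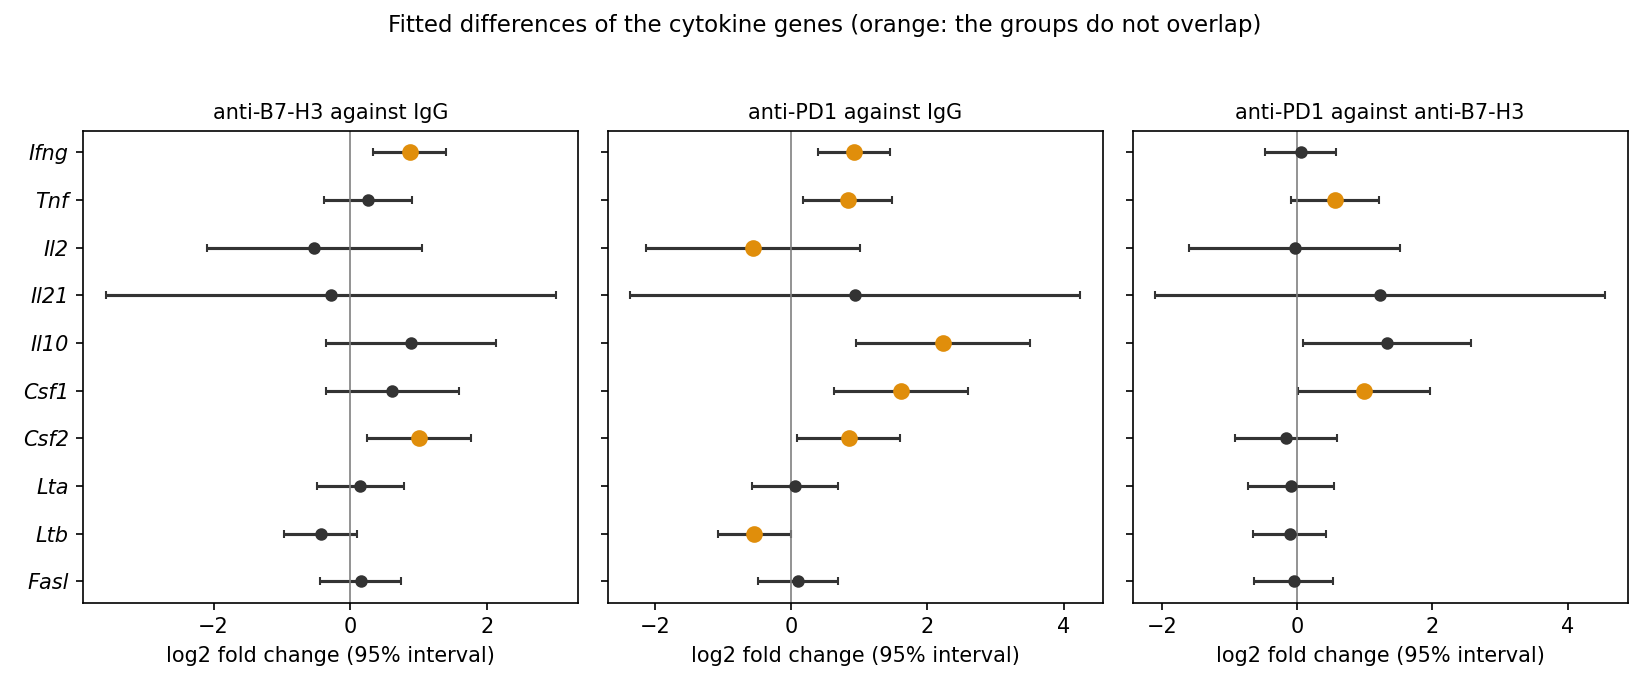
Log2 fold change of each cytokine gene in the 3 comparisons, fitted by edgeR over 9 libraries, with 95% intervals that are not adjusted for the number of genes. Orange points are genes whose 2 groups do not overlap. The intervals of Ifng and Csf2 exclude 0 against IgG in both left panels, and that of Il21 is the widest.

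The cells that can make these cytokines differed between groups as well, and in a bulk library fewer cells of a type and less RNA per cell cannot be told apart. NK cell markers summed to 409 to 1541 CPM in IgG, 1786 to 2299 under anti-B7-H3 and 1377 to 1931 for anti-PD1. All 10 had positive fitted differences from IgG with each antibody and 0 of 10 passed the test. Of 12 macrophage markers, 6 were called higher with each antibody. Their sum was 66.5 to 159 CPM in IgG, 705 to 1324 under anti-B7-H3 and 664 to 1091 for anti-PD1. Csf1r, Fcgr1, Ms4a7 and Trem2 were at 0 in IgG replicate 2, and Mertk at 0 there and in anti-PD1 replicate 3. Neutrophil markers summed to 228 to 318, 541 to 886 and 1228 to 1464 CPM in the same order, with 4 and 6 of 8 called higher. Monocyte markers summed to 481 to 845, 1326 to 1583 and 1177 to 2037 CPM, with 1 of 7 called higher with each antibody, and conventional dendritic cell markers to 172 to 373, 448 to 668 and 439 to 536 CPM, with 0 of 9 called. Both sums lay above IgG in all 6 antibody libraries, but many of their genes overlapped IgG. Singly, 3 of 7 monocyte markers were higher without overlap with each antibody. Of the 9 dendritic cell markers, 3 and 5 were. Chil3 averaged 20.0, 473 and 618 CPM in the same order, while Ly6c2 overlapped between groups. Flt3 (10.9, 9.92 and 19.1 CPM) and Zbtb46 (6.84, 6.53 and 8.11 CPM) were not higher in mean under anti-B7-H3. Among 16 marker lists, the monocyte and dendritic cell sums were nearest in profile to Ifng (root mean square differences of centred log2 CPM of 0.38 and 0.39). They were also the nearest to Csf2 (0.38 for each). Ifng differed from a flat profile by 0.475 and Csf2 by 0.509, so these lists were only somewhat nearer. Plasma cell markers summed to 155 to 495, 484 to 687 and 1054 to 1408 CPM, with 0 and 2 of 7 called higher. They were the list nearest to Csf1 (0.51), closely followed by neutrophil markers (0.53). Helper T cell markers summed to 1046 to 1703, 519 to 914 and 1157 to 1761 CPM, below IgG in the 3 anti-B7-H3 libraries, with 0 of 4 called. Singly, 1 of the 4 separated in this way, Tnfrsf4, at 583 to 1028 CPM in IgG and 202 to 530 under anti-B7-H3. Cd4, Cd40lg and Icos overlapped. Il2 had no single nearest list. Helper T cell markers (0.448), innate lymphoid and gamma-delta T cell markers (0.452) and regulatory T cell markers (0.453) were about equally near. Il2 differed from a flat profile by 0.470. Ltb was nearest to the T cell markers (0.13). CD8 T cell markers summed to 291 to 823, 375 to 796 and 193 to 345 CPM, with 0 of 2 called. This sum was lower with anti-PD1 than with anti-B7-H3 without overlap, as was 1 of its 2 genes singly, Cd8a. Regulatory T cell markers summed to 1432 to 2167, 563 to 1297 and 1574 to 2423 CPM, with 0 of 5 called. Here the 3 anti-B7-H3 libraries lay below IgG, and singly so for 2 of the 5 genes, Foxp3 and Tnfrsf18. The part of these cell types in the cytokine differences was not tested.

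As a ratio to T cell marker RNA in the same library, Ifng was at 0.391 ± 0.134 CPM per 100 CPM in IgG, 0.875 ± 0.202 under anti-B7-H3 and 0.938 ± 0.271 with anti-PD1 (SD, n = 3 each). Csf2 was at 0.0971 ± 0.0110, 0.243 ± 0.0394 and 0.226 ± 0.054. Both antibody groups lay above IgG without overlap for these 2 genes. Tnf, Il10 and Csf1 lay above IgG without overlap with anti-PD1, and Csf1 also above anti-B7-H3. Each of these 8 contrasts had p = 0.1 in a two-sided exact permutation test, the smallest p that 3 against 3 allows, among 30 such tests. The share of all tested genes that separate in this ratio was not computed, so the 8 have no background. The T cell sum averaged 10107 CPM in IgG, 8125 under anti-B7-H3 and 7853 with anti-PD1. A smaller sum raises the ratio of any gene. The ratio of Ltb was 14.9 ± 1.70, 13.8 ± 0.962 and 13.4 ± 1.45, and its groups overlapped (exact permutation p = 0.4 for anti-PD1 against IgG). Relative to T cell marker RNA, the difference of Ltb between groups was thus within the spread of the libraries.

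As a ratio to macrophage marker RNA, values went the other way. The macrophage sum averaged 114 CPM in IgG, 992 under anti-B7-H3 and 920 with anti-PD1. The largest fold among the 10 cytokine genes was 4.68, for Il10 with anti-PD1. Lower ratios therefore follow from the denominator and say nothing further about the cytokines. Ifng was at 37.1 ± 14.0 CPM per 100 CPM of macrophage markers in IgG, 7.68 ± 3.55 under anti-B7-H3 and 8.15 ± 2.20 with anti-PD1. Il10 was at 5.11 ± 1.78, 1.27 ± 0.674 and 3.55 ± 2.85, and Csf1 at 12.0 ± 6.60, 2.22 ± 1.37 and 4.43 ± 1.78. These ratios carry no test. The antibody groups were below IgG by group mean for all 3, as they were for the other 7 genes.

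**Figure D3:**
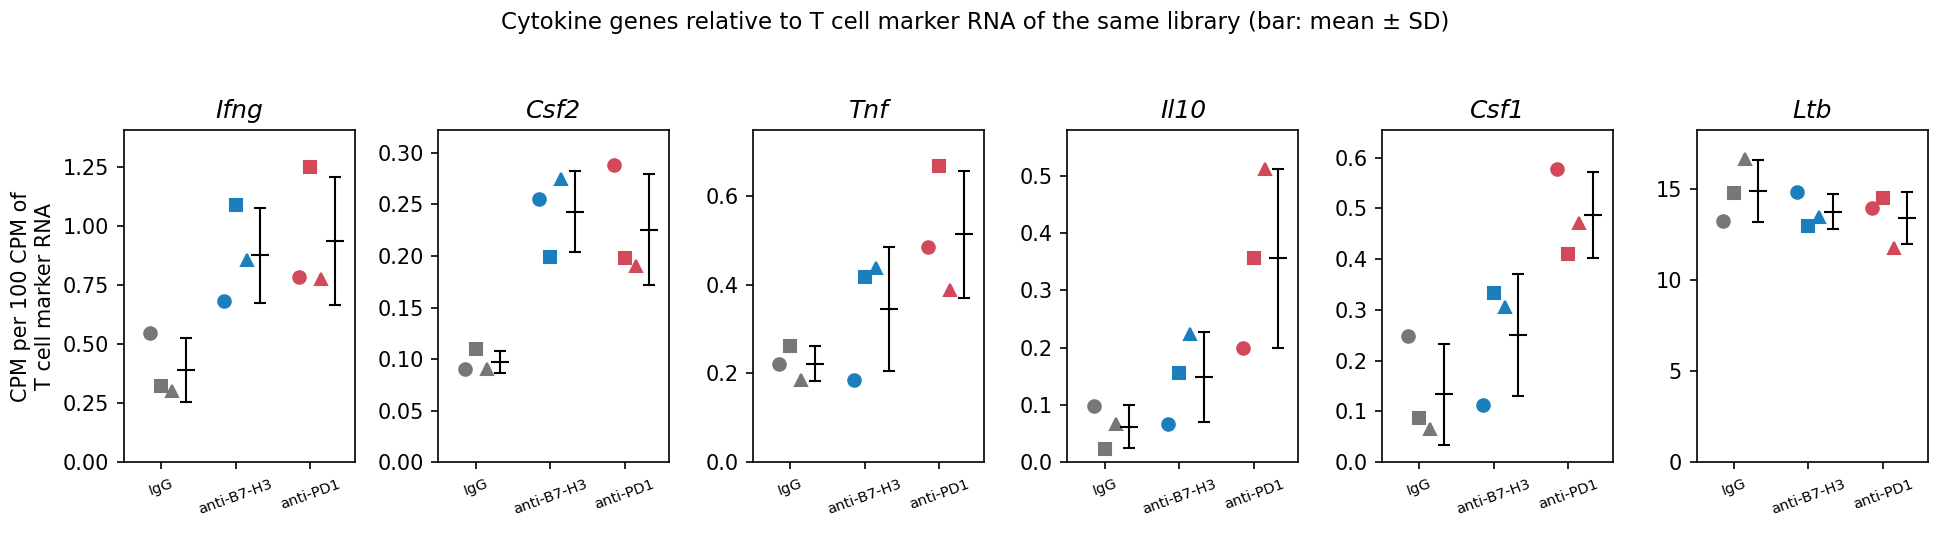
CPM of 6 cytokine genes per 100 CPM of summed T cell marker RNA in the same library, with the mean and SD of 3 libraries per group and a linear axis from 0 in each panel. Ifng and Csf2 lie above IgG with both antibodies, and Ltb overlaps between the groups.

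The estimated transcript shares of Csf1 were not alike in the 3 groups. Csf1-201, with a coding length of 1659 bases, held a mean of 64.5% of Csf1 TPM in IgG, 69.2% under anti-B7-H3 and 67.0% with anti-PD1. The shorter Csf1-202, with a coding length of 774 bases, held 18.4% to 42.2% in IgG, 0% to 7.97% under anti-B7-H3 and 15.4% to 26.0% for anti-PD1. The anti-B7-H3 libraries were below the other 6. These shares rest on 19.9 to 40.5 estimated counts a library in IgG, 0 to 25.9 under anti-B7-H3 and 90.8 to 134 for anti-PD1, and no test was run on them. Csf1 is known to be spliced into secreted and membrane-bound forms, and the tables do not name which transcript is which. The shares of Ltb-201 (80.4% to 82.2% in the group means) and Fasl-201 (41.8% to 43.8%) were alike across groups. In IgG replicate 3, all of Il21 was assigned to Il21-202, where every other library with Il21 had Il21-201.

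**Figure D4:**
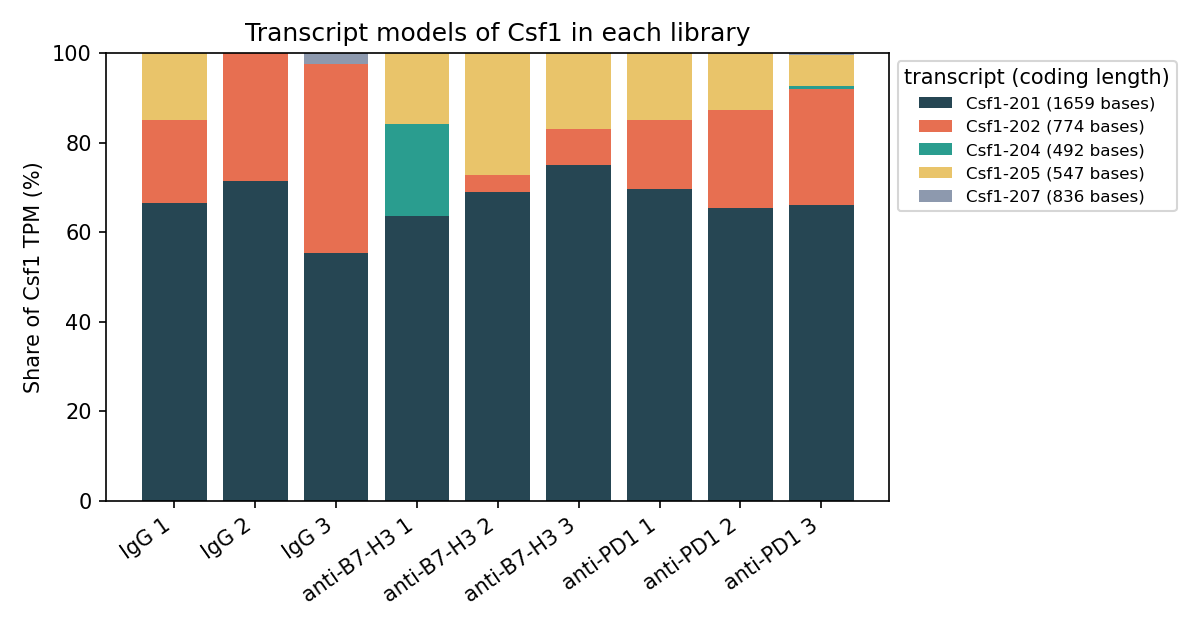
Share of Csf1 TPM assigned to each transcript in each of the 9 libraries, in percent, as bars that sum to 100. The Csf1-202 share is smallest in the 3 anti-B7-H3 libraries, at 7.97% or less.

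Of the 17 receptor genes of these cytokines, 2 rose with each antibody against IgG and 0 fell. Both encode the GM-CSF receptor. Csf2ra, its ligand-specific chain, was at 13.8, 5.01 and 20.8 CPM in IgG, 72.7, 54.9 and 62.7 with anti-B7-H3, and 78.9, 85.6 and 56.4 with anti-PD1. It rose by 2.26 ± 0.43 (edgeR adjusted p = 0.0346) and 2.48 ± 0.43 (edgeR adjusted p = 0.0152) on the log2 scale. Csf2rb, the shared signalling chain, rose by 1.74 ± 0.32 (edgeR adjusted p = 0.0305) and 1.94 ± 0.32 (edgeR adjusted p = 0.0116). Csf2rb has a near-identical neighbour, Csf2rb2, so its reads may be split. All 6 antibody libraries lay above the IgG libraries for both genes. The sums of macrophage and neutrophil markers also lay above IgG in these libraries, and their part in the receptor differences was not tested. With anti-B7-H3, the call of Csf2rb was lost without any of 8 libraries, all but anti-B7-H3 replicate 1, and that of Csf2ra without any of 7, all but IgG replicates 2 and 3 (edgeR adjusted p up to 0.131). With anti-PD1, that of Csf2ra was lost without anti-PD1 replicate 1 or 2 (edgeR adjusted p up to 0.0636). Csf1r, the receptor of Csf1 and a macrophage marker, was at 36.7, 0 and 30.2 CPM in IgG against 124 to 355 in the other libraries, with edgeR adjusted p-values of 0.535 and 0.513. Neither Ifngr1, Ifngr2 nor Il2ra passed.

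**Figure D5:**
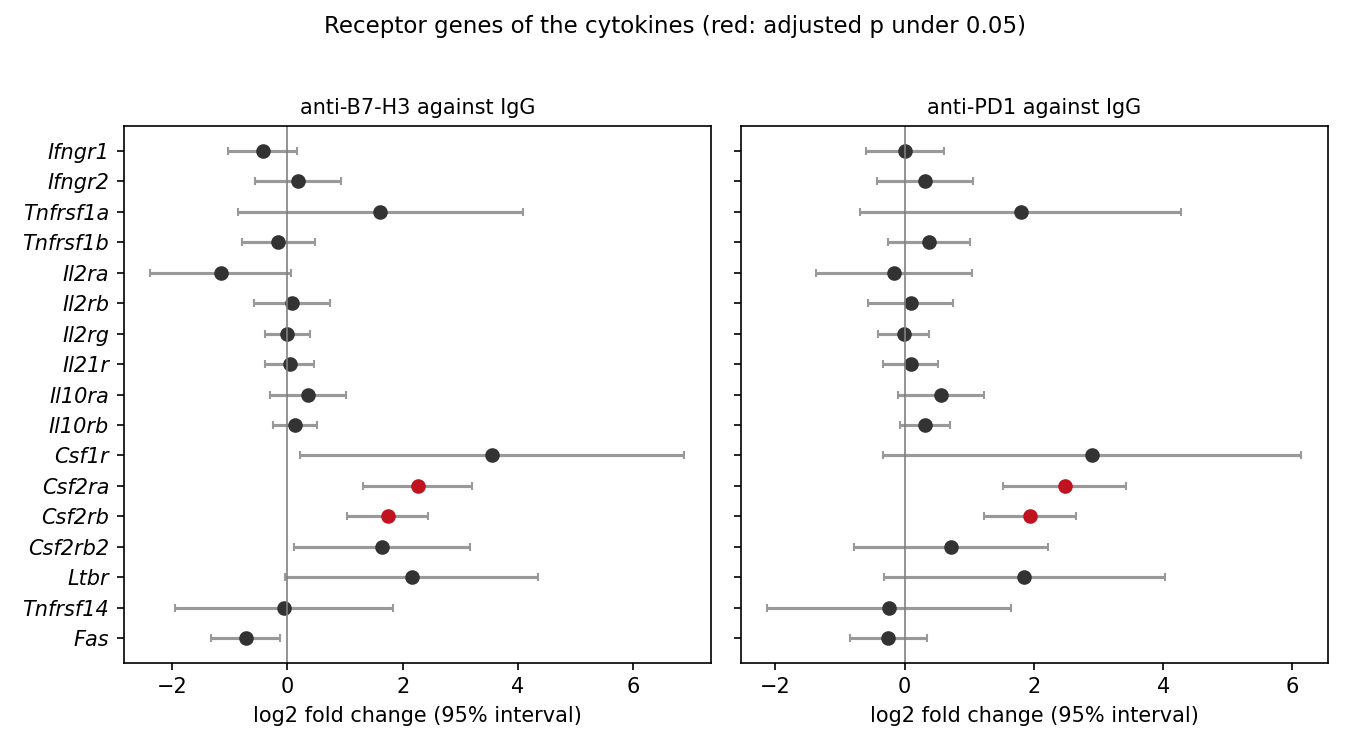
Log2 fold change against IgG of 17 receptor genes, fitted by edgeR, with 95% intervals not adjusted for the number of genes. Red points, Csf2ra and Csf2rb, passed the adjusted threshold in both panels, and Csf1r has one of the widest intervals.

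Of 21 tested targets of interferon gamma, 0 passed with either antibody. The median log2 difference was 0.01 under anti-B7-H3 and -0.01 with anti-PD1, and that of all tested genes 0.02 and -0.04. The targets nearest to the threshold were Cxcl9, a chemokine that attracts T cells, with Ciita, the master regulator of MHC class II, for anti-B7-H3 and Cd274, which encodes PD-L1, for anti-PD1. Cxcl9 had 1 count over the 3 IgG libraries against 249 with anti-B7-H3, a CPM ratio of 182 with a 95% counting interval from 32.4 to 7232. With anti-PD1 it had 254 counts, a ratio of 176 (31.2 to 6964). The edgeR adjusted p-values were 0.0807 and 0.0584. Ciita differed by 1.84 ± 0.50 with anti-B7-H3 (edgeR adjusted p = 0.199) and Cd274 by 1.71 ± 0.39 with anti-PD1 (edgeR adjusted p = 0.0592).

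Of 15 targets of TNF and NF-kB, 1 rose under anti-B7-H3 and 3 with anti-PD1, and 0 fell. The median log2 differences were 0.45 and 1.17, against 0.02 and -0.04 for all tested genes. Myeloid marker RNA also differed between the groups, and its part in these differences was not tested. Tnfaip2, an induced gene of myeloid and endothelial cells, rose by 3.50 ± 0.62 (edgeR adjusted p = 0.0291) and 4.33 ± 0.65 (edgeR adjusted p = 0.00750). Nfkbia, the NF-kB inhibitor, rose by 1.17 ± 0.22 with anti-PD1 (edgeR adjusted p = 0.0267). Cxcl1, a neutrophil chemokine, had 0 counts in the IgG libraries and 392 with anti-PD1, at least 90.3-fold higher against a floor of 3 counts over the group (edgeR adjusted p = 0.0271). Without single libraries, Tnfaip2 lost its call in 8 of 9 fits with anti-B7-H3 (all but IgG replicate 1), Nfkbia in 4 and Cxcl1 in 6 with anti-PD1 (edgeR adjusted p up to 0.101, 0.107 and 0.112).

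Of 12 growth factor targets of CSF1 and CSF2, 3 rose under anti-B7-H3 and 5 with anti-PD1. Among them Spi1, a transcription factor of myeloid cells, and Ccl17, a dendritic cell chemokine, rose in both, Spi1 by 1.90 ± 0.25 (edgeR adjusted p = 0.00615) and 2.07 ± 0.26 (edgeR adjusted p = 0.00250). Irf4 and Egr2 rose with anti-PD1. Spi1 kept its calls in all 9 fits without 1 library. Ccl17 lost its call in 8 of 9 under anti-B7-H3 and without anti-PD1 replicate 2 with anti-PD1, Irf4 in 6 and Egr2 in 8 (edgeR adjusted p up to 0.193). Several genes of this list are also markers of the myeloid cells whose RNA differed between the groups. Of 11 targets of interleukin 2 and STAT5, Osm rose in both, by 2.19 ± 0.27 (edgeR adjusted p = 0.00430) and 2.70 ± 0.28 (edgeR adjusted p = 0.000865). Differences from IgG were positive for 5 of these 11 under anti-B7-H3 (median log2 difference -0.026) and for 8 with anti-PD1 (0.43). Of 7 targets of interleukin 10, Nfil3 rose in both, by 1.11 ± 0.21 (edgeR adjusted p = 0.0326) and 1.84 ± 0.21 (edgeR adjusted p = 0.00176), and Socs3 with anti-PD1. Of these calls, that of Nfil3 with anti-B7-H3 was lost in 7 of 9 fits without 1 library (edgeR adjusted p up to 0.161) and the others in 0.

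Among 20 transcription factors of lymphocyte cytokine genes, 2 rose with anti-B7-H3, the AP-1 members Fos and Jun, and 4 with anti-PD1, Fos, Irf4, Rel and Bhlhe40. Fos was at 508, 511 and 705 CPM in IgG and at 1301 to 1650 CPM in the 6 antibody libraries. Its log2 differences were 1.45 ± 0.20 (edgeR adjusted p = 0.00646) and 1.35 ± 0.20 (edgeR adjusted p = 0.00608), called in all 9 fits without 1 library. Jun lost its call in 8 of these fits, Irf4 in 6, Rel in 7 and Bhlhe40 in 8 (edgeR adjusted p up to 0.169). Tbx21, which encodes the T-bet regulator of Ifng, differed by 0.41 ± 0.31 and 0.36 ± 0.31 without passing. Of 10 tested inducers of interferon gamma and their receptors, 0 passed. Il12b, a subunit of interleukin 12, had 0 counts in IgG against 116 with anti-B7-H3, at least 28.3-fold higher on the same floor (edgeR adjusted p = 0.407). It had 16 counts with anti-PD1, at least 3.69-fold higher, all in replicate 1 of that group (edgeR adjusted p = 0.533).

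Of 9 factors that act on AU-rich cytokine mRNA, Zfp36, which encodes the decay factor tristetraprolin, rose by 1.31 ± 0.21 (edgeR adjusted p = 0.0153) and 1.68 ± 0.21 (edgeR adjusted p = 0.00290). Zc3h12a, the RNase regnase-1, rose with anti-PD1. Of 4 chemokines released with the cytokines, Ccl3 rose in both, by 1.61 ± 0.28 (edgeR adjusted p = 0.0236) and 2.11 ± 0.28 (edgeR adjusted p = 0.00399), and Ccl4 with anti-PD1 by 1.81 ± 0.35 (edgeR adjusted p = 0.0264). Zfp36 lost its anti-B7-H3 call without anti-B7-H3 replicate 2 or 3, Zc3h12a its call in 7 of 9 fits, and Ccl3 under anti-B7-H3 and Ccl4 in 4 each (edgeR adjusted p up to 0.163). Of all 32 such calls in these lists, 14 were kept in every fit without 1 library and 18 were lost in at least 1. Between the antibodies, 0 genes of any of these lists passed by edgeR.

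The genes whose profile over the 9 libraries was nearest to each cytokine, by the root mean square difference of centred log2 CPM, are named here as a description. For Ifng they were Ier5 (0.21), Cd86 (0.21) and Srf (0.22), where the median over 9681 candidate genes was 0.64. Those of Csf2 were Dusp22 (0.18), Ctss (0.22) and H2-DMa (0.23), with a median of 0.67. For Tnf they were Grina (0.16), Socs2 (0.20) and Tent5a (0.20), with a median of 0.62. Those of Il10 were Cd274 (0.38), Areg (0.45) and Rap2a (0.47), with a median of 1.23. For Csf1 they were Dusp4 (0.26), Snx18 (0.27) and Csnk1g1 (0.27), with a median of 0.97. Those of Ltb were Mrpl18, Skap1 and Ccdc124, each at 0.10 with a median of 0.52. The nearest to Lta were Tmem184b, Ptpn2 and Tmem209, and Irak1 and Ddx3x were among the nearest to Fasl. For Il2 they were Faap24, Nln and Phkb, and for Il21 Vps8, Mfn1 and Nt5dc2. All genes of a library share its depth and its mix of cells.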

How the data were processed

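RNA of CD45+ tumour cells was made into libraries with SMART-Seq v4, ribosomal depletion and Nextera XT, per the labels' protocols. The submitters' processing notes list FastQC 0.11.8 and the build GRCm38. The quantifier is not given in the sources used here. The deposited tables hold, per the file headers, an estimated count, which is not normalized, and a TPM value for each of 58083 transcripts. Of the transcripts, 57409 matched GENCODE M21, and 674 were not used. Estimated counts were summed per gene and rounded.

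The 9 libraries entered 1 edgeR 4.0.16 fit (R 4.3.3, TMM, filterByExpr, robust quasi-likelihood, a mean per group), adjusted by Benjamini and Hochberg at 0.05 and tested on simulated data. CPM of single genes use TMM-scaled sizes, and summed markers add them. The members and lists were chosen with earlier results of these data known. Named genes are the 10 members, from each list those past the threshold (up to 6 by p, or the nearest 2 where none passed), and the 3 nearest profiles of each member (candidates at 5 CPM or more, prior count 2). Ratios were tested as log2 of CPM plus 0.5 over T cell marker CPM, and no adjusted value is given because 20 arrangements cannot pass. There were 19 alternatives, including DESeq2 1.42.0. Values of 2 genes that the rule for named genes selects are not reported here.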

Additional observations from a re-analysis of the deposited data

How the results depend on the processing

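Against IgG with anti-B7-H3, 112 genes passed in all: DESeq2 called 394, the fit to the 6 libraries of both groups 44, and fits without 1 library 59 to 144 (59 to 64 without any 1 anti-B7-H3 library, and 73 without anti-PD1 replicate 2). With anti-PD1, 229 passed: DESeq2 called 660, the 6 libraries 136, and fits without 1 library 113 to 262 (113 and 116 without anti-PD1 replicates 1 and 2). Between the antibodies DESeq2 called 15, and fits without 1 library 0 to 1. Of the 10 cytokine genes, DESeq2 called 1 in the anti-B7-H3 comparison and 3 in the anti-PD1 comparison, the fit with no filter on low counts 1 (Il10) with anti-PD1, and fits without 1 library 0 to 1 (Csf1, without IgG replicate 1). The cause of these shifts was not tested, beyond the smaller number of libraries in some fits. Replicate numbers showed no clear pairing of the libraries: of 9 same-numbered pairs, 1 had a correlation of deviations over 0.1 (-0.12 to 0.16). Differently numbered pairs ran from -0.14 to 0.12, and such values cannot exclude a shared batch. With the replicate number as a block, 64 and 127 genes passed against IgG and 0 of the 10 cytokine genes. The block turned the sign of Il21 with anti-B7-H3 (0.60) and of Il2 between the antibodies (0.054). Without IgG replicate 2 and anti-PD1 replicate 3 together, Il21 turned to -0.37 with anti-PD1, and between the antibodies Lta to 0.089 and Fasl to 0.13. Against IgG, Ifng, Tnf, Il2, Il10, Csf1, Csf2 and Ltb kept their direction in all alternatives run. Signs that turned without 1 library belonged to differences near 0 or to genes of low count. With anti-B7-H3 these were Il21 (-0.86 to 1.01) and Fasl (-0.10 to 0.32). With anti-PD1 they were Lta (-0.21 to 0.23), Fasl (-0.024 to 0.28) and Il12b (0 to 5.72, with 0 counts in both groups once anti-PD1 replicate 1 was left out). Between the antibodies they were Ifng (-0.12 to 0.22), Il2 (-0.31 to 0.38), Csf2 (-0.35 to 0.046), Lta (-0.35 to 0.089), Ltb (-0.22 to 0.12) and Fasl (-0.22 to 0.20). Among log2 ratios to T cell RNA, signs turned for Il2 (-0.53 to 0.24) and Il21 (-0.24 to 1.12) under anti-B7-H3 and for Il2 (-0.34 to 0.069) with anti-PD1. Between the antibodies they turned for Ifng (-0.14 to 0.26), Il2 (-0.37 to 0.41), Lta (-0.41 to 0.22), Ltb (-0.10 to 0.050, and 0.0017 with Cd3e, Cd3d and Cd3g as the reference) and Fasl (-0.33 to 0.33). The depth limits Il21 most, with 0 to 84 counts a library.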
